A study of Rattus norvegicus with 5 samples.

Results

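Clones 1-1.2 and 1-1.16, which make up clone set 1-1, were compared with the parental INS-1 line from which they were derived. The arrays were chosen by their labels: 1 array for each of the 2 clones and the single parental array, 3 of the 5 arrays in the series. INS-1 is a rat insulinoma line, a tumour cell line that still makes and secretes insulin. The clones of set 1-1 carry an FRT site, at which Flp recombinase can insert a gene, and the tetracycline repressor, which holds such a gene silent until tetracycline is given. The parental line is labelled with neither. The clones of set 5-3, named 5-3.14 and 5-3.19, carry the same 2 elements and served as a second reference. For each of these arrays the labels name no inserted gene and no tetracycline treatment. Each clone goes back to selected cells, and the labels do not say whether the clones of a set share an origin. Each line is represented by 1 array, so the p-values below measure the spread between clones, and a property of the parental line cannot be told apart from the handling of its array.

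Beta cells couple glucose metabolism to the release of insulin granules, and insulinoma lines keep much of this programme while dividing. A line such as INS-1 can hold cells in several states, and a clone starts from few of them. Several of the gene groups below are set by known circuits: sterol genes by the SREBP transcription factors, amino acid response genes by ATF4, and immediate early genes by calcium, cAMP and growth factor signals.

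Signals are on an arbitrary linear scale on which every array had been brought to a common trimmed mean of about 1000, and differences are given as log2(signal + 21.8), an offset that damps the change of dim genes. Of 15866 probe sets, 9520 were bright enough over the 5 arrays to be tested, covering 6944 genes. The defining beta cell markers were present on all 3 arrays, and the summed signal of 9 of them was 149389 and 92524 in clones 1-1.2 and 1-1.16, against 150035 in the parental line. Insulin 1 (Ins1) read 42217 and 34381 in the clones, against 37359.9 in parental cells, and members that were lower are described with the beta cell genes. No acinar, fibroblast, endothelial, leukocyte, delta or PP cell marker passed the brightness limit, but both alpha cell markers, the ductal marker Krt7 and all 6 neuronal markers did. The summed signal of 2 alpha cell markers, nearly all of it glucagon, was 2271 and 18054 in the clones, against 7053 in parental cells. That of 6 neuronal markers was 10714 and 7687 in the clones, against 10133 in parental cells, and that of 3 ductal markers 957 and 1023 in the clones, against 1927 in parental cells. The summed signal of 6 acinar markers was 320 and 467 in the clones, against 292 in the parental line, that of 6 fibroblast markers 566 and 583, against 672, and that of 5 leukocyte markers 415 and 382, against 450. That of 2 endothelial markers was 104 and 81.1 in the clones, against 88, and that of 3 delta and PP cell markers 124 and 143, against 156. Added poly(A) control RNAs differed: lys read 1344 and 1382 in the clones, against 5871 on the parental array, and thr, trpn, phe and dap were between 1.36- and 1.81-fold brighter on the parental array than in the clones. The bio and cre control probe sets went the other way, with 1740 and 1659 in the clones, against 1348 on the parental array. The part of these control differences in the results below was not tested. Probes at the 3′ end of the beta-actin transcript, which outshine those at the 5′ end as RNA breaks down, did so by 1.49- and 1.73-fold in the clones, against 1.60-fold in parental cells, so the clones lay on both sides of the parental array. For GAPDH the same ratio was 0.981 and 0.985 in the clones, against 1.05 in parental cells, and so lower in both clones.

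Both 1-1 clones differed from the parental line in the same direction, by at least 2-fold, at 279 of the 9520 probe sets. In bulk RNA, fewer cells of a kind and less RNA per cell cannot be told apart. Of the 279, 88 were higher in both clones (0.924% of those tested) and 191 were lower in both (2.01%). They stand for 77 and 154 named genes, and 7 and 30 of the probe sets have no single gene symbol. Only 2 probe sets, for Gcg and Tnfrsf9, lay at least 2-fold apart on opposite sides. Taken singly, clone 1-1.2 was at least 2-fold higher at 152 and lower at 328 probe sets, and clone 1-1.16 was higher at 301 and lower at 425. Because both differences subtract the same parental array, part of the agreement between the clones is fixed by that array. Of the 279, 263 had a difference between the sister clones that was smaller than the smaller of the 2 shifts from the parental line. The choice of large shared shifts makes this likely, so the count is no measure of how alike the clones are. Over all 9520 probe sets, the sister clones were at least 2-fold apart at only 254. Probe sets higher in the clones were dim in the parental line, with a median parental signal of 311, and those lower in the clones were bright there, with a median of 1366, where the median of all tested probe sets was 969.9. The choice fixes part of this, because the parental signal enters each difference. Genes dim in the parental line could also pass the brightness limit through the clones.

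**Figure D1:**
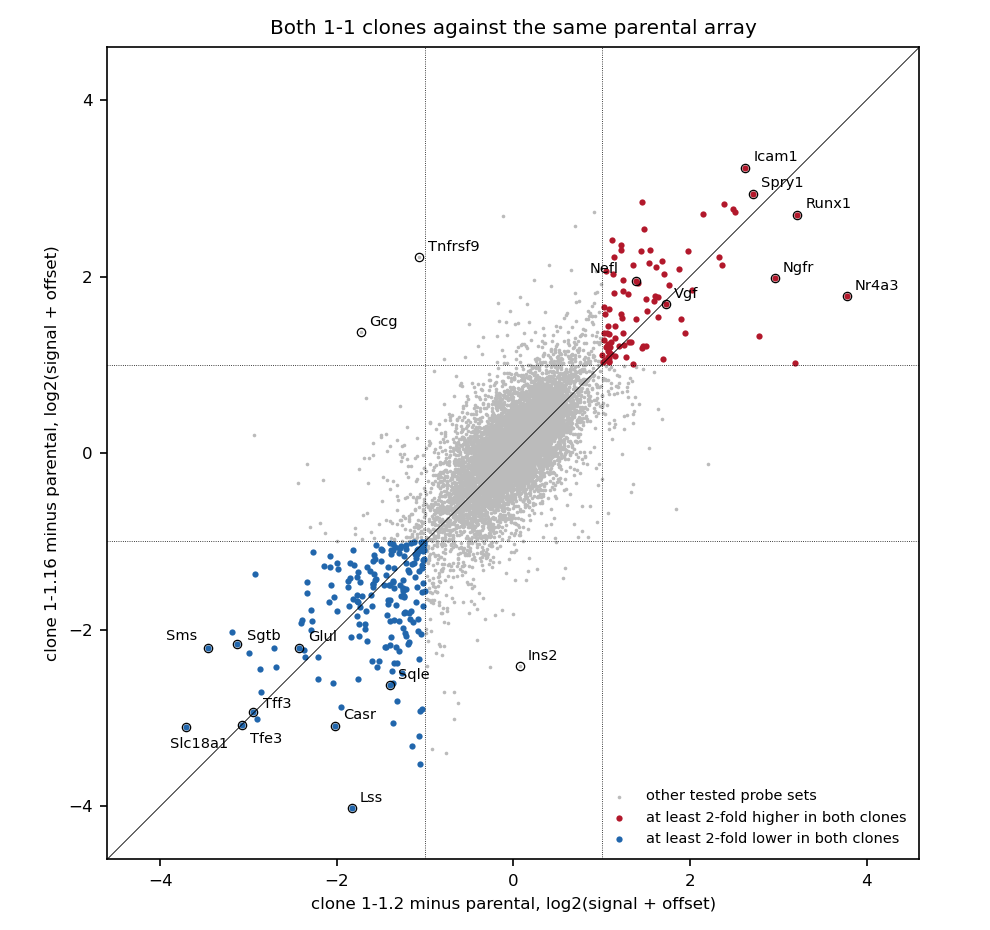
Each point is 1 of the 9520 tested probe sets, with its log2 difference from the parental array in clone 1-1.2 on the x axis and in clone 1-1.16 on the y axis; dotted lines mark a 2-fold difference and the solid line equality of the clones. The 88 red and 191 blue points are at least 2-fold higher or lower in both clones, and Gcg and Tnfrsf9 lie in the opposite corner.

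Against the spread between sister clones, 1 gene passed. limma, fitted to all 5 arrays in 3 groups with Benjamini-Hochberg adjustment over all tested probe sets, called 0 probe sets higher in the 1-1 clones than in the parental line (0% of those tested) and 1 lower (0.0105%). Unadjusted p-values below 0.05 numbered 806, against the 476 that uniform p-values would give. The called gene was Tff3, which encodes a trefoil peptide of mucous epithelia. Tff3 read 961 and 976 in clones 1-1.2 and 1-1.16, against 7592 in the parental line and 30294 and 27465 in the 5-3 clones. Both 1-1 clones lay far below all other arrays and close to each other. Tff3 fell by 2.94 ± 0.22 on the log2 scale (SE, limma adjusted p = 0.0411), a 7.63- to 7.75-fold lower signal. The call ended when arrays were centred on their medians (limma adjusted p = 0.0564), without the brightness limit (0.117) and without an intensity trend (0.0980). A fit to only the 3 arrays of this comparison, which leaves 1 residual degree of freedom and so takes the spread from a single pair of sister clones, called 18 probe sets higher (0.189%) and 32 lower (0.336%), and all 50 were at least 2-fold apart in both clones. Spry1 was among them (limma adjusted p = 0.0124 in that fit). With single clones left out, the number of calls was 53 without clone 5-3.14, 44 without clone 5-3.19, 21 without clone 1-1.2 and 5 without clone 1-1.16. The cause was not tested.

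The most separated gene on the higher side was Spry1, an inhibitor of receptor tyrosine kinase signalling. Spry1 read 2139.6 and 2507 in clones 1-1.2 and 1-1.16, against 308 in the parental line and 890 and 384 in the 5-3 clones. The receptor gene Igf1r read 2218 and 2047 in the 1-1 clones, against 423 in the parental line, and Igfbp3, which encodes a binding protein that holds insulin-like growth factors, read 1592 and 1359.7 in the clones, against 293 in parental cells. Its second probe set read 3239 and 2859.6 in the clones, against 778 in parental cells. The 1-1 clones were the brightest arrays at all 3 genes, and none passed limma in the fit of all arrays (adjusted p of 0.267, 0.132 and 0.267 in the order given). Ngfr, the low-affinity neurotrophin receptor, read 1502 and 751 in the clones, against 174 in the parental line and 88.7 and 157 in the 5-3 clones. Ackr3, a receptor that takes up the chemokine CXCL12, read 424 and 495 in the 1-1 clones, against 99.9 in the parental line, and here clone 5-3.19 was the brightest array at 1021.

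Runx1, a transcription factor, read 1583 and 1105 in clones 1-1.2 and 1-1.16, against 151 in the parental line and 1877 and 660.1 in the 5-3 clones. Nfil3, a basic leucine zipper repressor, read 1444 and 1962 in the 1-1 clones, against 259.8 in the parental line and 338 and 367 in the 5-3 clones. The parental line was the dimmest array at both genes, but for Nfil3 the 5-3 clones lay close to it and for Runx1 they did not. Icam1, the adhesion molecule that leukocyte integrins bind, read 662 and 1021 in the 1-1 clones, against 89 in the parental line and 171 and 17.1 in the 5-3 clones, which lie on either side of the parental signal. The kinase gene Camk4, activated by calcium and calmodulin, read 826 and 962 in the 1-1 clones, against 127 in the parental line. It read 883 and 263 in the 5-3 clones. Its second tested probe set read 448.4 and 293.5 in the 1-1 clones, against 100.7 in parental cells. Ckmt2, a mitochondrial creatine kinase, read 924 and 1129.9 in the clones, against 147 in parental cells, and Gcsh, a subunit of the glycine cleavage system, 2192 and 2713 in the clones, against 538 in parental cells. The second Camk4 probe set had log2 differences of 1.94 and 1.36 in clones 1-1.2 and 1-1.16. Apart from it, all of these were at least 3.95-fold higher in both clones, and their limma adjusted p ranged from 0.132 to 0.524. Leng1 read 361 and 457 in the clones, against 95.8 in parental cells.

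**Figure D2:**
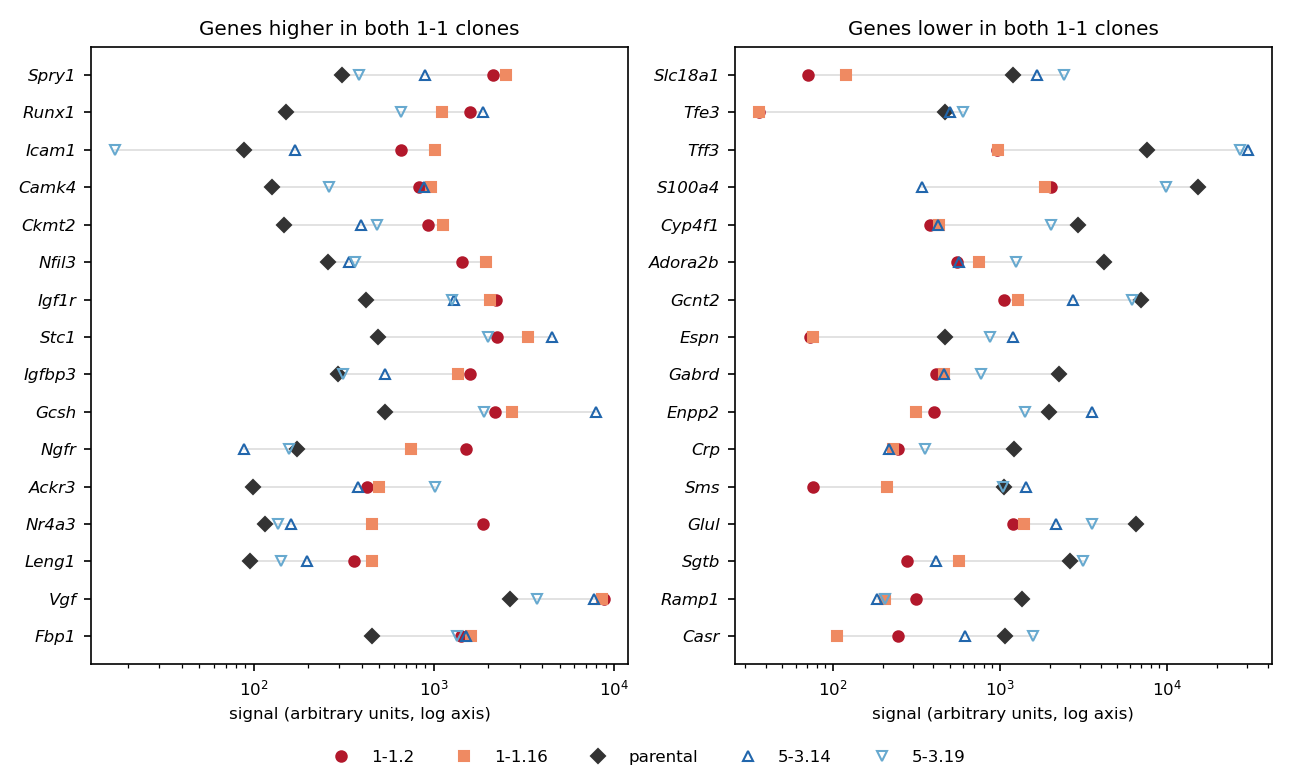
Signal on a log axis in each of the 5 arrays for the 16 genes with the largest shared difference in each direction, ordered by the smaller of the 2 clones' differences. Filled circles and squares are the 1-1 clones, diamonds the parental line and open triangles the 5-3 clones; the 1-1 clones lie on 1 side of the diamond in every row.

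Genes lower in both clones included transporters, enzymes and receptors of signalling cells. Slc18a1, the vesicular monoamine transporter of endocrine cells, read 71 and 119 in clones 1-1.2 and 1-1.16, against 1189 in the parental line and 1675 and 2409 in the 5-3 clones. Tfe3, a transcription factor of lysosomal and autophagy genes, read 36.2 and 36.3 in the clones, against 468 in the parental line. These clone signals are close to the offset of 21.8, so the 8.44- to 8.45-fold lower value for Tfe3 on the offset scale is smaller than the ratio of the signals themselves. S100a4, a calcium-binding protein of motile cells, read 2012 and 1866 in the 1-1 clones, against 15210.2 in the parental line, but the 5-3 clones spanned 343 and 9792. With that spread in the fit, its limma adjusted p was 0.653, against 0.00796 in the fit to the 3 arrays alone. Glul, which encodes glutamine synthetase, was lower at all 3 of its probe sets, of which the most separated read 1195 and 1395 in the clones, against 6510 in parental cells. Sms, which encodes spermine synthase, read 76.3 and 212 in the clones, against 1058 in parental cells, and Enpp2, which encodes the lysophosphatidic acid producing enzyme autotaxin, 405 and 314 in the clones, against 1965 in parental cells.

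Receptors on the lower side were Adora2b, an adenosine receptor, with 554 and 749.8 in clones 1-1.2 and 1-1.16, against 4182 in the parental line; Casr, the calcium-sensing receptor, with 246 and 106 in the clones, against 1068 in parental cells; and Gabrd, a GABA-A receptor subunit, with 415 and 462 in the clones, against 2243 in parental cells. Ramp1, a partner of calcitonin-type receptors, read 313 and 206 in the clones, against 1361 in parental cells. For Adora2b, Gabrd and Ramp1 both 5-3 clones were at least 2-fold below the parental array too. Adora2b read 573 and 1245 in the 5-3 clones, Gabrd 460.4 and 765 and Ramp1 184 and 204, and these comparisons share the parental array with those of the 1-1 clones. Casr did not show this, with 615 and 1572 in the 5-3 clones on either side of the parental signal. The cytochrome P450 gene Cyp4f1 read 384 and 429 in the 1-1 clones, against 2924 in the parental line. Gcnt2, a glycan-branching enzyme, read 1058 and 1284 in the clones, against 6957 in parental cells, the acute-phase gene Crp 246 and 228 in the clones, against 1222 in parental cells, and the co-chaperone gene Sgtb 279 and 567 in the clones, against 2616 in parental cells. Among the 16 lower genes of the plot of the most separated genes, the limma adjusted p was between 0.132 and 0.653 except for Tff3.

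Whether a shift set the 1-1 clones apart from the other engineered clones was tested with limma as 1-1 minus 5-3, in which the parental array cancels. Of all tested probe sets, 19 were called higher (0.2%) and 21 lower (0.221%) in the 1-1 clones. Of the 88 probe sets higher than parental in both 1-1 clones, 3 were called higher than in the 5-3 clones, and of the 191 lower ones, 12 were called lower. Without clone 5-3.14 the calls in both directions numbered 221, and without clone 5-3.19 224. Both comparisons use the same 1-1 arrays, so these counts are not independent of how the probe sets were chosen. The 3 higher genes were Nfil3, by 2.19 ± 0.25 on the log2 scale (SE; limma adjusted p = 0.0363), Nefl, by 2.44 ± 0.30 (adjusted p = 0.0363), and Slc24a3, by 1.88 ± 0.26 (adjusted p = 0.0484). Nefl, a neurofilament subunit, read 589 and 881 in the 1-1 clones, 212 in the parental line and 114 and 115 in the 5-3 clones. Slc24a3, a sodium, calcium and potassium exchanger, read 622 and 682 in the 1-1 clones, 192 in the parental line and 154 and 168 in the 5-3 clones. A second Slc24a3 probe set read 210.4 and 320 in the 1-1 clones, against 207 in the parental line, and did not show the 2-fold difference in clone 1-1.2.

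Among the named genes lower than in the 5-3 clones were Tff3, Fetub, Espn and Muc13 from the epithelial and mucosal list. Fetub, a secreted protein of the cystatin superfamily, read 30.3 and 47 in clones 1-1.2 and 1-1.16, against 192 in the parental line and 3139 and 2556 in the 5-3 clones. Espn, an actin bundling protein of microvilli, read 73.4 and 76.5 in the 1-1 clones, against 467 in parental cells and 1191 and 877 in the 5-3 clones, and Muc13, a membrane mucin, read 1005 and 700 in the 1-1 clones, against 2675 in parental cells and 5433 and 6899 in the 5-3 clones. At all 4 genes the parental signal lay between the clone sets, which did not overlap. Fetub was below the signal of 194 that sets the brightness limit in the 1-1 clones and the parental line and entered the test through the 5-3 clones, so the size of its difference depends on the offset. Its limma result is partly fixed by that limit and is given as a description. The 1-1 minus 5-3 differences were −4.87 ± 0.18, −5.58 ± 0.28, −3.43 ± 0.28 and −2.84 ± 0.26 on the log2 scale (SE, limma adjusted p of 0.000383, 0.000987, 0.0106 and 0.0148). Slc18a1, Tfe3, the aromatic amino acid transporter Slc16a10 and the synaptic scaffold Shank2 were also lower than in the 5-3 clones, by 17.7-, 9.81-, 4.38- and 4.16-fold (limma adjusted p from 0.00839 to 0.0434). Shank2 read 349 and 506 in the 1-1 clones, against 1797 in the parental line and 1641 and 2019 in the 5-3 clones. Tfe3 read 468 in the parental line and 500.4 and 599 in the 5-3 clones, so that at both genes the 1-1 clones stood alone.

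**Figure D3:**
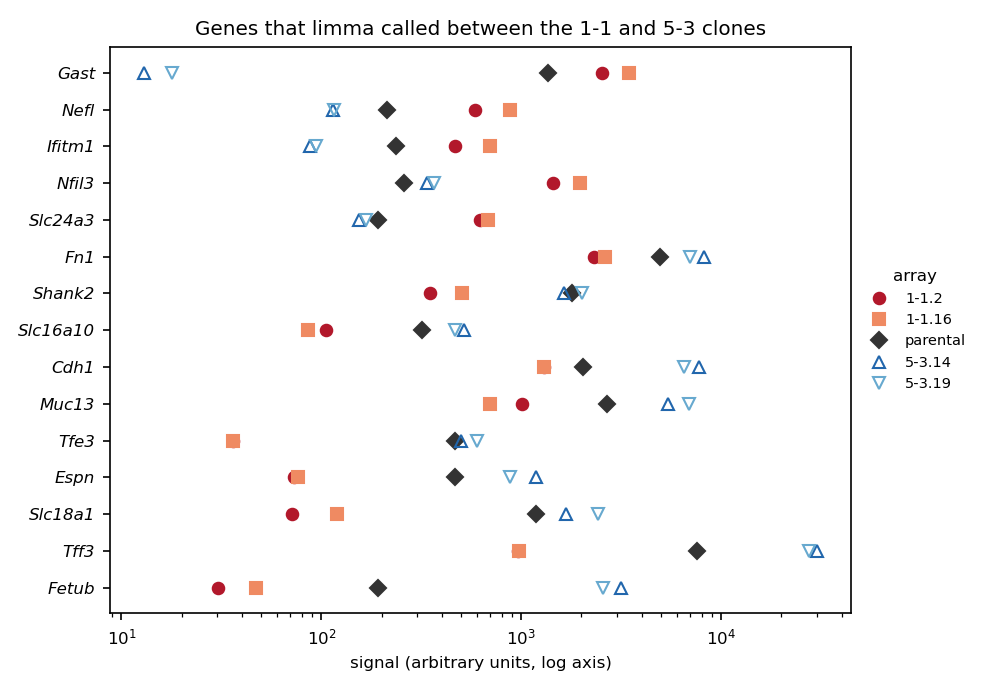
Signal on a log axis in each array for 15 named genes that limma called between the 1-1 and the 5-3 clones, from higher in the 1-1 clones at the top to lower at the bottom. The parental diamond lies between the clone sets for most genes, below both for Nfil3 and within the 5-3 clones for Shank2.

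Genes of sterol synthesis and uptake formed the group with the most uniform shift. All 24 tested members were below the parental line in both 1-1 clones, where 35.5% of all tested probe sets were, and 6 were at least 2-fold lower in both. Their median difference was −0.74 in clone 1-1.2 and −1.89 in clone 1-1.16, where the medians over all tested probe sets were −0.00011 and 0.04. None passed limma after adjustment, in either fit, and 15 had an unadjusted p under 0.05. The members span the pathway. Acat2, which joins acetyl groups at its start, read 1702 and 962 in clones 1-1.2 and 1-1.16, against 4017 in the parental line. Of the mevalonate steps, Mvd read 278 and 85.2 in the clones, against 728 in parental cells, and Idi1, which isomerises the isoprene unit, 3308 and 1208 in the clones, against 6540.3 in parental cells.

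Of the squalene steps, Fdft1, which makes squalene, read 1366 and 555 in clones 1-1.2 and 1-1.16, against 2889 in the parental line. Sqle, which oxidises squalene, read 2223 and 935 in the clones, against 5915 in parental cells, and Lss, which closes the sterol rings, 3073 and 1446 in the clones, against 5911 in parental cells. At each of these genes clone 1-1.16 lay below clone 1-1.2, and both lay below the parental array. Of the later steps, Hsd17b7 read 614 and 246 in the clones, against 1611 in parental cells, although its second probe set (446 and 217 in the clones, against 424 in parental cells) did not show this in clone 1-1.2. Tm7sf2, a sterol reductase, read 838 and 170.2 in the clones, against 1889 in parental cells. Its regulators were lower too. Srebf2, the master activator of the pathway, read 2027 and 1045 in the clones, against 3310 in parental cells, and Insig1, which holds the activator in the endoplasmic reticulum, 5368 and 981 in the clones, against 10220 in parental cells.

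The shift was deeper in clone 1-1.16 at 22 of 24 members, with a median difference between the sister clones of −1.01, a comparison in which the parental array plays no part. The 5-3 clones, set against the same parental array, had medians of −0.50 and −0.75, and limma called no member between the clone sets. In the list of fatty acid synthesis and desaturation, 13 of 16 members were below the parental line in both 1-1 clones and 2 were at least 2-fold lower. Acss2, which activates acetate, read 3249 and 2008 in clones 1-1.2 and 1-1.16, against 8557 in the parental line. Fasn, the fatty acid synthase, read 3974 and 2434 in the clones, against 7743 in parental cells, and the desaturase gene Scd2 13835 and 3083 in the clones, against 16642 in parental cells. The deficit of Scd2 was small in clone 1-1.2 and large in clone 1-1.16.

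**Figure D4:**
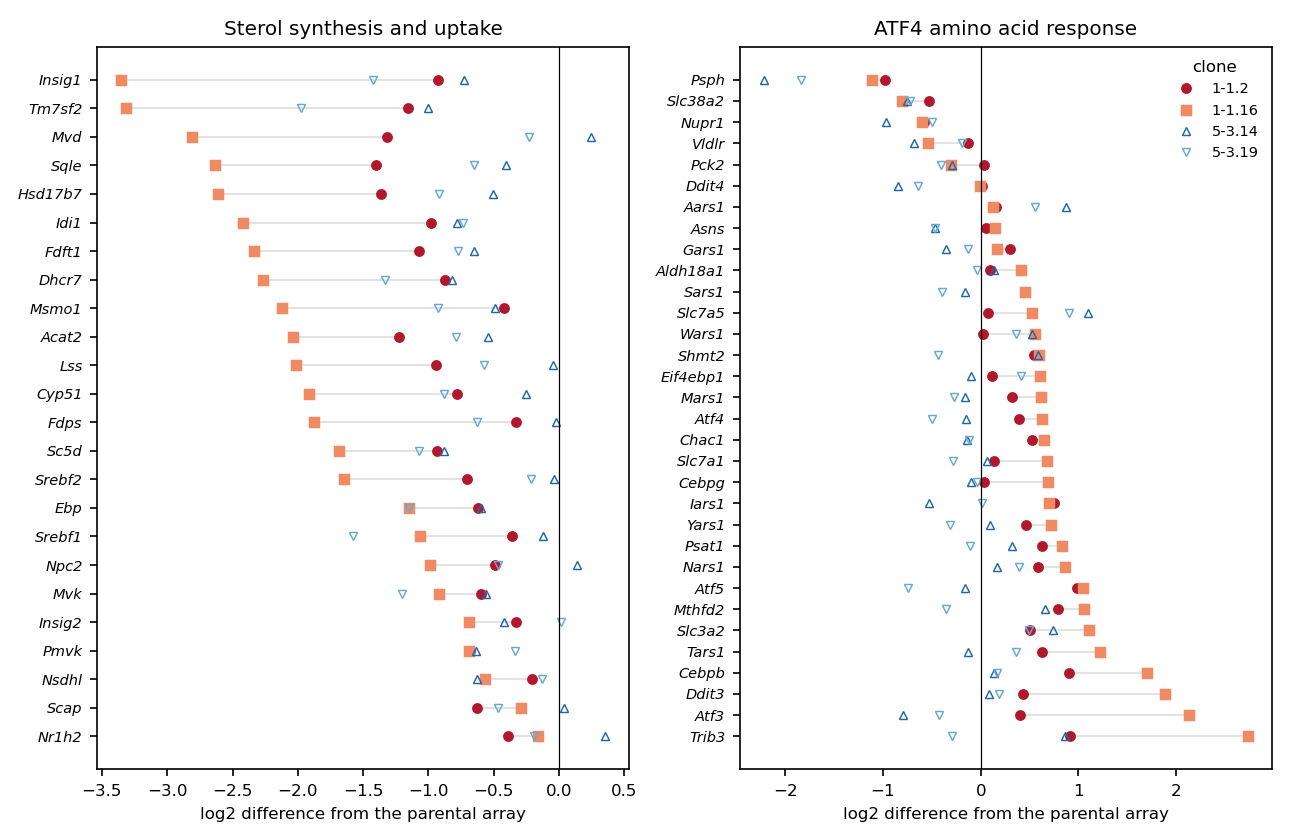
Log2 difference from the parental array for each tested gene of the sterol list (left) and of the ATF4 list (right), with the 1-1 clones as filled and the 5-3 clones as open symbols. All 24 sterol genes lie left of 0 in both 1-1 clones, and 26 of 32 ATF4 genes lie right of 0 in both.

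Most promoters of the sterol genes share a feature. In mammals SREBP, which sets these genes, acts together with NF-Y, a factor that binds the box CCAAT. The share of promoters that hold the box therefore describes the list and not the clones. RefSeq promoter sequence of build GRCr8 was found for 21 of the 24 genes, and CCAAT, searched on both strands over the 250 bases before the annotated start, was present in 16 of them (76.2%), against 36.4% of the promoters of all 5895 tested genes with sequence. The box is not particular to this list: it was in 61.5% of the fatty acid list, in 53.6% of the ATF4 list, whose genes mostly lay above the parental line, and in 36.1% of the genes at least 2-fold lower in both clones. The classical sterol element TCACNCCAC was in none of the 21 and in 0.984% of the promoters of tested genes. Stretches of 3 promoters are shown because these genes were far below parental cells in clone 1-1.16. They are given on the gene's strand with CCAAT or its reverse complement ATTGG in capitals: Insig1 (chr4:8057928-8057992, minus strand), Mvd (chr19:67414975-67415039, minus strand) and Tm7sf2 (chr1:212789596-212789660, minus strand).
Insig1: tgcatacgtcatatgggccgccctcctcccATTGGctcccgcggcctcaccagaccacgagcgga
Mvd: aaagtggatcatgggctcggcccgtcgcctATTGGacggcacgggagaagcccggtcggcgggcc
Tm7sf2: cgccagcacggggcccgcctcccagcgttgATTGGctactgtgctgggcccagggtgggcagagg

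Genes of the amino acid response driven by ATF4, which is set off by amino acid shortage and other stresses, mostly lay above the parental line. Of 32 tested members, 26 were above the parental line in both 1-1 clones, where 39.1% of all tested probe sets were, and 4 were below in both, but 0 reached 2-fold in both clones. These shares of all tested probe sets, 39.1% above and 35.5% below in both clones, are the background for the counts of the lists that follow. The medians were 0.36 in clone 1-1.2 and 0.62 in clone 1-1.16, and −0.12 and −0.23 in the 5-3 clones. limma called no member in either comparison, and 9 had an unadjusted p under 0.05 against the parental line. Atf4 itself read 6878 and 8096 in clones 1-1.2 and 1-1.16, against 5226 in the parental line, and its relative Atf5 read 5255 and 5491 in the clones, against 2647 in parental cells. Cebpb read 1259 and 2200.4 in the clones, against 661 in parental cells, and the pseudokinase gene Trib3 356 and 1314 in the clones, against 179 in parental cells. Of the biosynthetic genes, Mthfd2, a mitochondrial folate enzyme, read 1762 and 2121 in the clones, against 1006 in parental cells, and the transfer RNA synthetase gene Tars1 2871 and 4342 in the clones, against 1848 in parental cells. Psph, which completes serine synthesis, went against the list, with 2073 and 1888 in the clones, against 4111 in parental cells. The stress genes Ddit3 and Atf3 were high mainly in clone 1-1.16: Ddit3 read 675 and 1896 in the clones, against 496 in parental cells, and Atf3 251 and 878 in the clones, against 184 in parental cells.

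The amino acid response element, searched as TGATGNAA on both strands of the same 250 bases, was present in 10 of 28 ATF4 list promoters with sequence (35.7%), against 1.63% of the promoters of tested genes. Genes enter such lists in part because they hold this element, so the share describes the list and not the clones. Of the 10 holders, 8 were above the parental line in both clones, 1 (Nupr1) was below in both and 1 (Pck2) was split. Stretches of 4 are shown with the match in capitals: Trib3 (chr3:161275534-161275584, minus strand), Tars1 (chr2:62114803-62114859, minus strand), Chac1 (chr3:126795934-126796001, plus strand) and, as the holder on the lower side, Nupr1 (chr1:190645919-190645986, minus strand).
Trib3: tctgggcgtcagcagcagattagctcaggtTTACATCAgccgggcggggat
Tars1: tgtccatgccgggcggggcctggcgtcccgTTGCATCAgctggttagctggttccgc
Chac1: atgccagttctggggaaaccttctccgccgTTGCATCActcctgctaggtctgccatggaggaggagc
Nupr1: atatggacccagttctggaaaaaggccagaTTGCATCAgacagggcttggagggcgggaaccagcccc
Nupr1, a stress-induced chromatin protein, holds the element and was lower, with 1956 and 1936 in clones 1-1.2 and 1-1.16, against 2946 in the parental line. Chac1, which degrades glutathione, read 701 and 763 in the clones, against 479.9 in parental cells.

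The unfolded protein response list, which shares stress signals with ATF4, split between the clones. Of 28 members 11 were above and 7 below the parental line in both, none by 2-fold, and 24 of 28 were lower in clone 1-1.16 than in clone 1-1.2, by a median of −0.37. The endoplasmic reticulum chaperone gene Hspa5 read 20628 and 12753 in clones 1-1.2 and 1-1.16, against 14955 in the parental line, and Sdf2l1 read 9900.2 and 2938 in the clones, against 4704 in parental cells. The parental signal lay between the sister clones at both genes. Pdia3, a disulfide isomerase, was higher in both clones, with 13938 and 12613 in the clones, against 8817 in parental cells, and Dnajb9, a chaperone cofactor, lower in both, with 1164 and 870.4 in the clones, against 2027 in parental cells.

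Beta cell identity genes were more often lower than higher, above all in clone 1-1.16. Of 22 members, 12 were below and 2 above the parental line in both clones, with medians of −0.26 in clone 1-1.2 and −0.77 in clone 1-1.16, and 19 of 22 were lower in clone 1-1.16 than in its sister. Hnf4a, a nuclear receptor of the beta cell network, read 150.2 and 121 in clones 1-1.2 and 1-1.16, against 433 in the parental line, and Gipr, the receptor of the incretin GIP, 962 and 817 in the clones, against 2000.1 in parental cells. Both were at least 2-fold lower in both clones, and the second Hnf4a probe set, below the brightness limit, read 139 and 37.9 in the clones, against 186 in parental cells. Of the transcription factors, Neurod1 read 6927 and 2790.1 in the clones, against 8773 in parental cells, Pdx1 2343 and 1454 in the clones, against 2829.8 in parental cells, and Nkx6-1 1053 and 1599 in the clones, against 2219.5 in parental cells. The glucose transporter gene Slc2a2 read 5338 and 6485 in the clones, against 8926 in parental cells. None of these was 2-fold lower in both. Igf1r, which is on this list too, was the 1 member at least 2-fold higher in both.

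The hormone genes took different directions. Ins2 read 30224 in clone 1-1.2 and 5381 in clone 1-1.16, against 28816 in the parental line, so clone 1-1.2 lay close to the parental line and clone 1-1.16 far below both. The 5-3 clones were low as well, with 3953 and 4303. Gcg, which encodes glucagon and GLP-1, read 2064 and 17772 in the 1-1 clones, against 6874 in parental cells, on opposite sides of it. In the 5-3 clones Gcg read 20549.5 and 24434, above parental cells as in clone 1-1.16. Islet amyloid polypeptide (Iapp), released together with insulin, read 33945 and 19870.5 in the clones, against 27899 in parental cells, again on opposite sides. On the higher side were Vgf, a precursor of secreted peptides, with 8809 and 8559.7 in the clones, against 2646 in parental cells, and Sct, which encodes secretin, with 807 and 753 in the clones, against 244 in parental cells. Stc1, which encodes the secreted glycoprotein stanniocalcin 1, has 2 probe sets. The more separated read 2248 and 3331 in the clones, against 492 in parental cells, and the brighter, which stands for the gene in the list, 6097 and 8551 in the clones, against 1880.3 in parental cells. Gast, which encodes gastrin, read 2540.1 and 3474 in the 1-1 clones, against 1362 in the parental line and 12.9 and 18 in the 5-3 clones. Only the difference between the clone sets passed limma for Gast, at 6.33 ± 0.27 on the log2 scale (SE, adjusted p = 0.000499), and its size depends on the offset because the 5-3 signals lie below it. The list of islet and gut hormones has 8 tested genes and does not hold Ins2 or Iapp. Of the 8, 3 were at least 2-fold higher in both clones and 0 lower, against 0.924% and 2.01% of all tested probe sets. Npy was the 1 member below parental cells in both, with 4179 and 1621 in the clones, against 5552.

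Granule genes were lower more often than higher. Of 27 members, 16 were below the parental line in both clones and 7 above, 4 were at least 2-fold lower and 1, Vgf, at least 2-fold higher. Pcsk2, a convertase that cuts prohormones, read 3331 and 1974 in clones 1-1.2 and 1-1.16, against 9129.9 in the parental line and 7512 and 8705 in the 5-3 clones. Scg2, which encodes secretogranin 2, read 2984 and 1728 in the 1-1 clones, against 7892 in parental cells, and Pcsk1n, an inhibitor of prohormone convertase 1, 1836 and 1224 in the clones, against 3986 in parental cells. The 1-1 clones did not overlap the other arrays at these 3 genes, and the limma adjusted p of Pcsk2 was 0.304 against the parental line and 0.0692 against the 5-3 clones. Chgb, chromogranin B, lay near the parental line, with 28575 and 31121 in the clones, against 28475 in parental cells.

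Vgf and Scg2 differed from the parental line in opposite directions, and each holds the cAMP response element TGACGTCA, the site bound by CREB, before its start. This palindrome was in 5 of the 63 promoters with sequence among the genes at least 2-fold higher in both clones (7.94%), in 4 of 122 among the lower ones (3.28%) and in 3.07% of those of tested genes. The stretches are Vgf (chr12:25277073-25277140, minus strand) and Scg2 (chr9:88256952-88257019, minus strand), with the element in capitals.
Vgf: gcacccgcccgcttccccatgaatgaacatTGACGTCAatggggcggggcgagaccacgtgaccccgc
Scg2: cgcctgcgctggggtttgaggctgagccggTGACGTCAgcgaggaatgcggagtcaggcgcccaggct

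Immediate early genes were higher more often than lower, with different members leading in each clone. Of 23, 13 were above and 3 below the parental line in both clones, 4 were at least 2-fold higher in both and 0 lower, and the medians were 0.15 in clone 1-1.2 and 0.68 in clone 1-1.16. The orphan nuclear receptor gene Nr4a3 read 1873 and 453 in clones 1-1.2 and 1-1.16, against 116 in the parental line, and Nr4a1 1015 and 1135 in the clones, against 479.6 in parental cells. The second Nr4a3 probe set, below the brightness limit, read 284 and 41.5 in the clones, against 37.7 in parental cells. It hardly differed in clone 1-1.16. Junb, an AP-1 subunit, read 260 and 311 in the clones, against 77.4 in parental cells, and Phlda1 692 and 238 in the clones, against 81.9 in parental cells. Nr4a3 and Phlda1 were highest in clone 1-1.2, whereas Myc, with 906 and 2438 in the clones, against 955 in parental cells, and Jun, with 183 and 588 in the clones, against 196 in parental cells, were above the parental signal only in clone 1-1.16. Of 20 interferon and antigen presentation genes, 12 were above and 4 below in both clones. Besides Icam1, the antiviral gene Bst2 was at least 2-fold higher in both, with 4722 and 3938 in the clones, against 1692 in parental cells, and Ifitm1 read 464 and 694 in the 1-1 clones, against 238 in the parental line and 88.2 and 93.9 in the 5-3 clones (1-1 minus 5-3 log2 difference 2.39 ± 0.31, SE, limma adjusted p = 0.0434).

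In insulin and IGF signalling, 14 of 26 members were below and 6 above the parental line in both clones. Beside Igf1r and Igfbp3, Irs2, which passes the receptor signal on, read 3988 and 4849 in clones 1-1.2 and 1-1.16, against 2448 in the parental line. Igfbp1, the neighbour of Igfbp3 on the genome, went the other way with 174 and 218 in the clones, against 940 in parental cells, and the 5-3 clones, at 64.9 and 2161, lay on both sides. Of 21 genes of glucose entry, glycolysis and lactate, 9 were above and 8 below, 2 at least 2-fold each way. Fbp1, the gluconeogenic fructose bisphosphatase, read 1420.3 and 1607 in the clones, against 453 in parental cells, and Slc16a1, the lactate and pyruvate carrier that beta cells normally keep low, 399.7 and 734 in the clones, against 133 in parental cells. At Fbp1 the 5-3 clones, with 1509 and 1341, were close to the 1-1 clones. Pyruvate carboxylase (Pc) read 435 and 418 in the clones, against 953 in parental cells, and the pyruvate kinase gene Pklr 1661 and 2171 in the clones, against 4409 in parental cells. At Pklr the 5-3 clones, with 2078 and 5616, lay on both sides of the parental signal. The second Pklr probe set read 323 and 639 in the 1-1 clones, against 1174 in parental cells, and was not 2-fold lower in clone 1-1.16. None of these 4 genes passed limma in the fit of all arrays (adjusted p from 0.267 to 0.611), and Fbp1 alone passed in the fit to 3 arrays (adjusted p = 0.0397). Of 21 hypoxia genes 12 were below and 6 above, with Stc1 at least 2-fold higher and Ankrd37 at least 2-fold lower (643 and 320 in the clones, against 1506 in parental cells). Of 23 antioxidant genes 11 were above and 5 below in both. The glutathione transferase gene Mgst1 was at least 2-fold higher, with 7990.3 and 7730 in the clones, against 3589 in parental cells, and the metallothionein gene Mt3 at least 2-fold lower, with 509.5 and 368 in the clones, against 1057 in parental cells.

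Genes of excitability and neurite growth were mostly lower, in part in the 5-3 clones too. Medians for neuronal growth and cytoskeleton genes were −0.23 and −0.40 in clones 1-1.2 and 1-1.16, and −0.45 and −0.39 in clones 5-3.14 and 5-3.19. For transmitter genes they were −0.36 and −0.60, and −0.70 and −0.64, in the same order. For ion channels and calcium pumps they were −0.48 and −0.31, and −0.18 and −0.05. All are set against the same parental array. Of 26 ion channels and calcium pumps, 18 were below and 4 above the parental line in both clones, and 2 were at least 2-fold lower: Kcnma1, the large-conductance potassium channel, with 241 and 107 in clones 1-1.2 and 1-1.16, against 648 in parental cells, and Cacna1a, a calcium channel, with 155 and 185 in the clones, against 406 in parental cells. Another tested Cacna1a probe set read 115 and 107 in the clones, against 330 in parental cells. A further tested one, with 130.5 and 296 in the clones, against 304 in parental cells, did not show this in clone 1-1.16. The last, below the brightness limit, read 117 and 151 in the clones, against 171 in parental cells. The ATP-sensitive potassium channel genes Kcnj11 and Abcc8 split between the clones. Kcnj11 read 3788 and 3042 in the clones, against 3414 in parental cells, and Abcc8 3012 and 1998 in the clones, against 2573 in parental cells. Of 36 neuronal growth and cytoskeleton genes 22 were below and 9 above, 5 at least 2-fold lower and 1 higher. Dcx, a microtubule-binding protein of migrating neurons, read 823 and 746 in the clones, against 2541 in parental cells, and Sncb, which encodes beta-synuclein, 3093 and 2553 in the clones, against 7400.2 in parental cells. Stmn2, a tubulin-binding protein, read 2936 and 1589 in the clones, against 5276 in parental cells. Nefl and Gap43 (4684 and 3291 in the clones, against 1895 in parental cells) stood on the higher side. Of 15 transmitter genes 10 were below and 2 above, and of 32 exocytosis genes 14 were below and 10 above with 0 at 2-fold in both clones. Of 24 hormone and transmitter receptors 8 were above and 8 below in both. Of these, Adora2b, Ramp1, Gipr and Sstr3 were at least 2-fold lower. Sstr3, a somatostatin receptor, read 409.6 and 344 in the clones, against 1526 in parental cells.

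Epithelial and mucosal genes, a list drawn up with their elevation in the 5-3 clones known, were below the parental line in both 1-1 clones at 11 of 14 members and at least 2-fold lower at 5. Their medians were −0.65 and −0.62 in clones 1-1.2 and 1-1.16. Of the 5, Fetub passed the brightness limit only through its 5-3 signals. How the genes of this list read in the 5-3 clones is partly fixed by the way it was drawn up and is given for single genes as a description. Keratin 7 (Krt7), the fifth member at 2-fold, read 882 and 903 in the 1-1 clones, against 1834 in the parental line and 808 and 1218 in the 5-3 clones. E-cadherin (Cdh1) read 1303 and 1306 in the 1-1 clones, against 2048 in parental cells and 7768 and 6524 in the 5-3 clones, a 1-1 minus 5-3 difference of −2.43 ± 0.21 (log2, SE, limma adjusted p = 0.0115). Krt7 makes up most of the summed signal of the ductal markers, whose part in these differences was not tested. Epcam, an epithelial adhesion molecule, went against the list with 8112 and 8954 in the 1-1 clones, against 4688 in parental cells and 7926 and 9233 in the 5-3 clones. Of 21 matrix and adhesion genes 10 were below and 6 above, and Col9a1, a collagen chain, was at least 2-fold lower in both, with 749.7 and 340.1 in the clones, against 1983 in parental cells. Fibronectin (Fn1) read 2314 and 2618 in the 1-1 clones, against 4972 in the parental line and 8221 and 6953 in the 5-3 clones, and passed between the clone sets (−1.61 ± 0.20 on the log2 scale, SE; limma adjusted p = 0.0382). Of 12 aldehyde dehydrogenase and retinoid genes 6 were below and 4 above, led by the retinoic acid binding protein gene Crabp1 with 195 and 280.2 in the clones, against 1127 in parental cells.

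Growth and housekeeping families differed by small amounts. Of 37 DNA replication and cell cycle genes 25 were above and 3 below the parental line in both clones, with medians of 0.29 and 0.31 and 0 at 2-fold. The ribonucleotide reductase gene Rrm1 read 2179.9 and 2244 in clones 1-1.2 and 1-1.16, against 1244 in the parental line, and the licensing gene Mcm7 8088 and 8172 in the clones, against 4913 in parental cells. Of 38 ribosomal protein genes 32 were above and 0 below in both, with medians of 0.33 and 0.24 that shrank to 0.17 for the mean of the clones under quantile normalization or cyclic loess, from 0.27 as deposited. Of 33 proteasome subunits 20 were above and 4 below, with medians of 0.15 and 0.12. Of 73 respiratory chain and ATP synthase genes 27 were above and 9 below in both clones, but 66 of 73 were lower in clone 1-1.16 than in clone 1-1.2, by a median of −0.26.

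**Figure D5:**
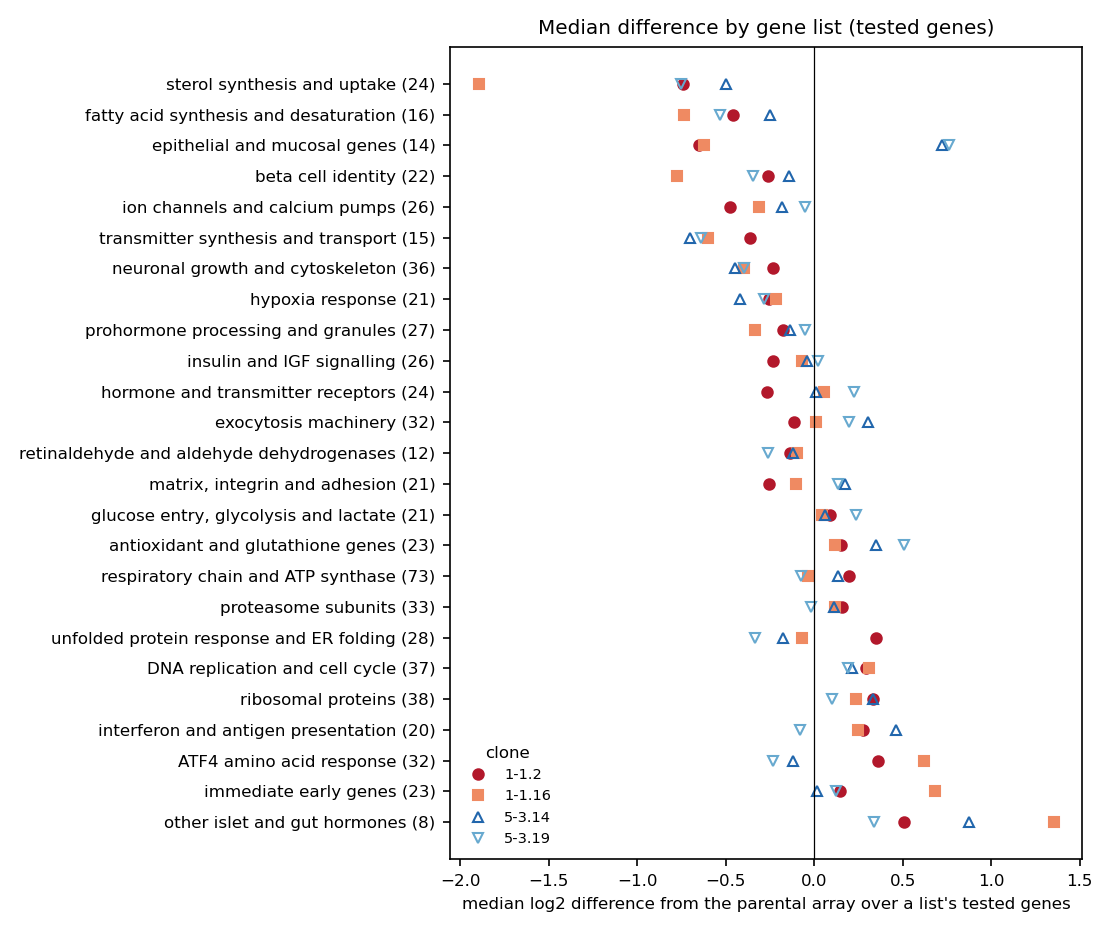
Median log2 difference from the parental array over the tested genes of each of 25 lists (number of genes in brackets), for the 1-1 clones as filled and the 5-3 clones as open symbols, ordered by the mean of the 1-1 clones. Sterol genes lie farthest left, at −0.74 and −1.89 in the 1-1 clones. The epithelial list was chosen with its level in the 5-3 clones known.

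The sister clones shared the direction of their difference from parental cells at 7097 of the 9520 tested probe sets, and the rest were split. They differed from each other by at least 2-fold at 254, and the median absolute difference between them was 0.23 on the log2 scale, against 0.28 for probe sets higher in both clones and 0.35 for those lower. The shift was larger in clone 1-1.16 at 63 of the 88 higher and 105 of the 191 lower probe sets. Tnfrsf9, a costimulatory receptor, read 271 and 2824 in clones 1-1.2 and 1-1.16, against 590.3 in the parental line, and so lay with Gcg on opposite sides. Just inside the 2-fold limit were Gadd45g, with 2645 and 2839 in the clones, against 1308 in parental cells, and Lpin1, with 412 and 416 in the clones, against 854 in parental cells. Just outside it were Itgb3bp, with 1418 and 1360.3 in the clones, against 676 in parental cells, and Nr0b2, with 476 and 547 in the clones, against 1109 in parental cells. These signals are too close for the limit to separate them.

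Some genes far from the parental line in the 1-1 clones were so in the 5-3 clones too, measured against the same parental array. Of the 88 higher probe sets, 21 were at least 2-fold higher in both 5-3 clones and 37 were 2-fold apart in neither. Of the 191 lower ones, 41 were lower in both 5-3 clones, 3 higher in both and 78 apart in neither. Over all 9520 tested probe sets, clones 5-3.14 and 5-3.19 were 2-fold higher at 316 and 244 and lower at 533 and 247. So at most 244 and 247 of all tested probe sets can be 2-fold higher or lower in both 5-3 clones. The share of all tested probe sets apart in neither was not counted, so the 37 and 78 are a description only. The shared array fixes part of the overlap. Igf1r read 2218 and 2047 in the 1-1 clones, against 423 in parental cells, where the 5-3 clones read 1296 and 1269. Ckmt2 read 395 and 485 in the 5-3 clones, and at both genes the 1-1 clones lay above them. At Stc1, with 4548 and 2009.7 in the 5-3 clones, and at Gcsh, with 7964 and 1898, the 1-1 clones lay within the range of the 5-3 clones. Fbp1, Junb and Phlda1 were at least 2-fold above parental cells in all 4 clones, with 223 and 515 at Junb and 230 and 201 at Phlda1 in the 5-3 clones. Ankrd37, Crp, Crabp1 and the membrane protein gene Tmem176b were at least 2-fold below parental cells in all 4 clones. Ankrd37 read 622 and 337 in the 5-3 clones. Tmem176b read 206 and 303 in the 1-1 clones, against 1182 in parental cells, where the 5-3 clones read 122 and 199.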

How the data were processed

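RNA of 5 INS-1 lines was measured on single-colour Affymetrix rat arrays, 1 per line. The deposited values are 1 linear intensity per probe set and array, scaled by the authors to a common trimmed mean, as the values themselves show. What software made them, and with which settings, is not given in the sources used here. Control probe sets, 57 in number, were set aside. Genes were named from the platform annotation, 12783 probe sets having a single symbol, and matched by gene number to RefSeq build GRCr8.

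Differences are of log2(intensity + 21.8), the offset being the 10th percentile of positive signals. Probe sets at or above the 40th percentile of mean log2 level, a signal of about 194, were tested. A probe set was counted when both 1-1 clones lay at least 2-fold from the parental array in the same direction. limma 3.58.1 in R 4.3.3 was fitted with 3 groups, an intensity trend and 2 residual degrees of freedom, at a Benjamini-Hochberg adjusted p of 0.05, and was tested on simulated data. Gene lists use the brightest probe set of each gene. Motifs were searched in 250 bases before RefSeq starts.

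Named genes are the 16 with the largest shared difference each way, up to 4 per list, genes on opposite sides of the parental array or next to the 2-fold limit, and those called between clone sets, besides a fixed set of islet genes. Other list members were added after their values were seen, to show steps of a pathway or members that go against their list. Members and lists were chosen with earlier results of these data known. Scaling, offset, brightness limit, probe set choice, fold limit, variance model and each clone left out were tried as alternatives.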

Additional observations from a re-analysis of the deposited data

Results flagged for a closer look

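The difference between the clone sets, 1-1 minus 5-3, is the difference of 2 effects measured against the same parental array, which cancels. Among its calls at limma's adjusted p of 0.05 are the 15 genes given here. Gng3, Nefm and Ldhb, whose values stand among the other observations, were called too. In full there were 19 calls upward and 21 downward, so the genes given are only some of them. Values are log2 differences. In the 1-1 clones Gast was higher by 6.33 (adjusted p = 0.000499), Nefl by 2.44 (0.0363), Ifitm1 by 2.39 (0.0434), Nfil3 by 2.19 (0.0363) and Slc24a3 by 1.88 (0.0484). On the lower side were Fetub with −5.58 (0.000987), Tff3 with −4.87 (0.000383), Slc18a1 with −4.15 (0.00839), Espn with −3.43 (0.0106) and Tfe3 with −3.29 (0.0116). Fetub passed the brightness limit only through its 5-3 signals, so its result is partly fixed by that limit. Muc13 followed with −2.84 (0.0148), Cdh1 with −2.43 (0.0115), Slc16a10 with −2.13 (0.0434), Shank2 with −2.06 (0.0434) and Fn1 with −1.61 (0.0382).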

How the results depend on the processing

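Probe sets at least 2-fold higher in both 1-1 clones, 88 as reported, numbered 278 without the brightness limit, 49 with it at the 60th percentile, 412 at a 1.5-fold and 22 at a 3-fold limit, and 152 to 301 with either clone left out. The 191 lower ones numbered 413, 105, 620, 50 and 328 to 425 under the same settings. Rescaling the arrays or changing the offset kept both counts within 1.5 times. The single limma call against the parental line became 0 under median centring, without the brightness limit and without the intensity trend, 50 in the fit to 3 arrays, and 5 to 53 with a clone left out, where the remaining clone borrows its spread from the other set. The 40 calls against the 5-3 clones became 72 under median centring, 64 with a 4 times larger offset, 10 without the brightness limit, 12 at the 60th percentile, and 50 to 224 with a clone left out; the cause was not tested. Of the list medians, that of islet and gut hormones, 0.55 as reported, was −0.18 at the 60th percentile, and that of glucose entry, glycolysis and lactate, −0.04, was 0.044 without clone 1-1.2 and 0.090 without clone 1-1.16. Of 29 list medians, 9 moved by more than the spread between the clones under median centring, 7 without the brightness limit, 6 under cyclic loess, 5 with all probe sets of a gene, 3 each under quantile normalization, the larger offset and the 60th percentile, and 9 and 7 without clones 1-1.2 and 1-1.16. No named gene that lay at least 2-fold from the parental line in both clones changed direction under the scalings, offsets or brightness limits. No paired analysis was possible because clone numbers are not shared between the groups. With 1 array per line, precision is limited by the number of arrays, and dim genes by the offset.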

Other observations

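Some genes that limma called between the clone sets did not differ by 2-fold between the 1-1 clones and the parental line, because the 5-3 clones stood apart. Gng3, a G protein gamma subunit of neurons and endocrine cells, read 5095 and 2453 in clones 1-1.2 and 1-1.16, against 3107 in the parental line and 129 and 38.5 in the 5-3 clones. Nefm, a neurofilament subunit like Nefl, read 453 and 491 in the 1-1 clones, against 569.6 in the parental line and 70.9 and 89.8 in the 5-3 clones. Ldhb, a lactate dehydrogenase subunit, read 2636 and 1872 in the 1-1 clones, against 1544 in the parental line and 455 and 573 in the 5-3 clones. The 1-1 minus 5-3 log2 differences were 5.22 ± 0.51, 2.28 ± 0.28 and 2.08 ± 0.26 (SE, limma adjusted p of 0.0176, 0.0363 and 0.0419).

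Several genes at least 2-fold apart from the parental line in both 1-1 clones are next to each other in the GRCr8 annotation. Tmem176a and Tmem176b encode related membrane proteins. Tmem176a read 297 and 296 in the 1-1 clones, against 1044 in the parental line, and Tmem176b read 206 and 303 in the 1-1 clones, against 1182 in the parental line. S100a3 and S100a4 are neighbours in a cluster of calcium-binding proteins. S100a3 read 282 and 262 in the 1-1 clones, against 758 in the parental line, and S100a4 read 2012 and 1866 in the 1-1 clones, against 15210.2 in the parental line. Both members of each pair were lower. Igfbp1 and Igfbp3, also neighbours, differed from the parental line in opposite directions. Such pairs were looked for after the called genes were known and were not tested.

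Not all genes with a cAMP response element on the higher side are granule genes. Rcan1, an inhibitor of calcineurin, read 3738 and 6392 in the 1-1 clones, against 1444 in the parental line. Epha2, an ephrin receptor, read 465 and 1009 in the 1-1 clones, against 187 in the parental line. Both held TGACGTCA before their start, and in neither were the 1-1 clones called against the 5-3 clones by limma (adjusted p of 0.180 and 0.131).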
